A study of Homo sapiens with 6 samples.

Results

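The ERBB receptors and their EGF-family ligands were examined in PC-3 cells, an established human prostate cancer line, with and without depletion of CdGAP. The group comprised 10 of the 64253 genes counted in each library and was chosen by gene symbol, with earlier results of these data known. It held the 3 receptors EGFR, ERBB2 and ERBB3 and the 7 ligands AREG, EREG, EPGN, BTC, HBEGF, TGFA and NRG1. All 10 passed the filter on low counts, EPGN and NRG1 only through their reads in depleted cells. The 3 shCdGAP samples came from PC-3 cells infected with lentivirus carrying an shRNA to CdGAP, the product of ARHGAP31 and a GTPase-activating protein for Rac1 and Cdc42, and the 3 shCon samples from PC-3 cells carrying a control shRNA. According to the methods, depleted cells were selected with puromycin and grown out from single cells, which was not stated for the controls, so an effect of the shRNA and a property of the selected clone cannot be told apart. Nothing in the labels tied the 3 samples of a group to separate infections, and p-values therefore measure the spread between these samples.

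ERBB receptors are tyrosine kinases that pair with each other once a ligand binds and then signal through the RAS-ERK and PI3K-AKT pathways. EGFR binds AREG, EREG, EPGN, BTC, HBEGF, TGFA and EGF, whereas ERBB3 and ERBB4 bind neuregulins such as NRG1. ERBB2 has no known soluble ligand and acts as a partner of the other receptors. The ligands are made as membrane-bound precursors, and proteases of the ADAM family release the active growth factor, so that the amount of ligand RNA is only the first step of ligand supply. Androgen-independent prostate cancer cells are known to make ligands for their own EGFR.

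The libraries held between 33182796 and 43154039 counted reads. ARHGAP31 was measured in CPM (counts scaled to a normalized library size). It was at 26.4, 27.1 and 26.9 CPM in shCdGAP samples 1, 2 and 3. The shCon samples were at 58.9, 60.6 and 58.2 CPM. ARHGAP31 RNA was thus 2.21-fold lower, a log2 fold change of -1.14, and only partly depleted. The paper reports a stronger reduction of this mRNA by qPCR and does not say which clone was sequenced. The epithelial and mesenchymal PC-3 markers KRT8, KRT18, EPCAM and VIM were all abundant. The prostate genes KLK3, KLK2 and FOLH1, low or absent in this line, had no reads. The summed level of 8 markers of other cell types, none of them at 0 in a whole group, was 71.6 to 75.2 CPM in shCdGAP and 25.1 to 26.4 CPM in shCon libraries, most of it from the fibroblast collagen gene COL1A1, and its part in the results was not tested. Replicate 2 of shCdGAP stood apart, with 159 of 10282 well-expressed genes more than 1.5-fold above the mean of the other shCdGAP libraries, against 1 and 21 genes for replicates 1 and 3. Members that rest on this library are given with and without it.

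Ligand RNA rose in shCdGAP cells while receptor RNA did not. Of the 7 ligands, 6 were higher at an adjusted p under 0.01 (edgeR's quasi-likelihood test), by between 1.33-fold for AREG and 49.7-fold for EPGN, and TGFA was the exception. None of the 3 receptors was higher, and ERBB2 was lower. Across all 16439 tested genes, 24.1% were higher and 22.0% lower by the same rule. With the added requirement of an absolute log2 fold change above 1, 3 members were called higher (EPGN, NRG1 and HBEGF) and none lower, where 8.56% of all genes were called higher and 4.19% lower. EPGN and NRG1 entered the test only through their shCdGAP reads, so they could only be called higher, here and among the 6 ligands. Requiring 10 reads in every library removed both and left HBEGF as the only member called. The 3 libraries of one group lay wholly on one side of the other group for 7 members, and for 67.1% of all tested genes. The median log2 fold change was 0.57 over the members and 0.01 over all genes. The member median includes EPGN and NRG1, which for the same reason could only raise it. In RNA from whole cultures, fewer cells that make a transcript and less of it per cell cannot be told apart.

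**Figure D1:**
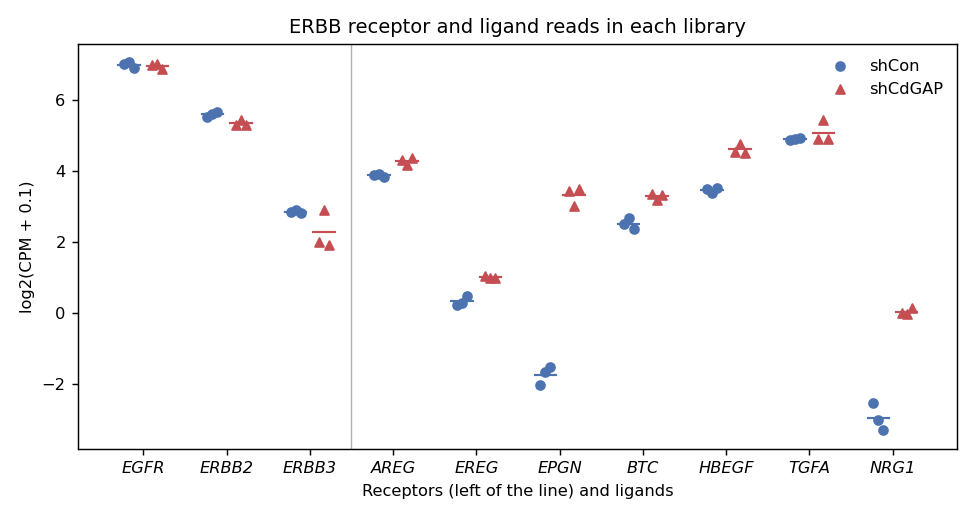
Level of each receptor and ligand as log2(CPM + 0.1) on the vertical axis, with 1 point per library (circles shCon, triangles shCdGAP) and a bar at the group mean. EPGN and NRG1 show the widest gaps, the EGFR groups overlap, and shCdGAP replicate 2 is the high triangle of ERBB3 and TGFA.

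Among the receptors, EGFR, the receptor for most of these ligands (ENSG00000146648, GRCh38 chromosome 7 from 55019021 to 55256620, plus strand), was measured at 127, 129 and 117 CPM in shCdGAP samples and at 129, 133 and 119 CPM in shCon samples. The groups overlapped, with means of 124 ± 6.44 and 127 ± 6.88 CPM (SD, n = 3 each). Its log2 fold change was -0.04, with a 95% interval from -0.16 to 0.09 (edgeR adjusted p = 0.591).

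ERBB2 (ENSG00000141736, chromosome 17 from 39687914 to 39730426, plus strand), the partner receptor without a ligand of its own, was measured at 38.8, 43.0 and 39.1 CPM in shCdGAP and at 46.1, 48.6 and 50.4 CPM in shCon samples. All 3 shCdGAP libraries lay below the shCon libraries. The decrease was small, with a log2 fold change of -0.26 (SE 0.0560, edgeR adjusted p = 0.00331). It no longer passed 0.01 when any of 4 libraries was left out, with an adjusted p of 0.0169 without shCdGAP replicate 1, 0.0132 without shCdGAP replicate 3, 0.0133 without shCon replicate 2 and 0.0148 without shCon replicate 3. ERBB2 overlaps PGAP3 and MIEN1 on the opposite strand. Reads were recorded as counted by strand, which keeps such genes apart only if the libraries were stranded, and this was not tested.

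ERBB3 (ENSG00000065361, chromosome 12 from 56079857 to 56103505, plus strand), a neuregulin receptor with little kinase activity of its own, was split between the shCdGAP libraries. It was at 3.85 and 3.67 CPM in replicates 1 and 3 but at 7.30 CPM in replicate 2, within the 7.10, 7.35 and 6.84 CPM of the shCon samples. With all libraries the log2 fold change of -0.51 (95% interval -1.09 to 0.07) did not pass (edgeR adjusted p = 0.114). Without shCdGAP replicate 2 it was -0.93, with an edgeR adjusted p of 3.29e-10, so the call for ERBB3 rests on that library.

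EPGN, which encodes epigen, a low-affinity EGFR ligand (ENSG00000182585, chromosome 4 from 74308473 to 74315307, plus strand), had the largest difference of the 10 genes. It had 429, 345 and 386 reads in the shCdGAP libraries against 6, 9 and 8 in the shCon libraries. This corresponded to 10.6, 7.92 and 11.2 CPM against 0.143, 0.213 and 0.242 CPM, with no overlap between the groups. The log2 fold change was 5.63 (SE 0.232, edgeR adjusted p = 1.73e-07), the 77th highest of the 16439 tested genes. The ratio of scaled counts was 49.9, with a 95% interval from 33.1 to 79 that covers counting error alone, and leaving out single libraries moved the log2 fold change to between 5.42 and 5.76.

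EREG, which encodes epiregulin, another low-affinity ligand (ENSG00000124882, chromosome 4 from 74365143 to 74388751, plus strand), was rare in both groups. Its counts were 79, 82 and 64 reads in shCdGAP and 45, 47 and 42 reads in shCon libraries, or 1.95, 1.88 and 1.86 CPM against 1.07, 1.11 and 1.27 CPM. The groups did not overlap, and the 1.65-fold difference gave a log2 fold change of 0.73 (SE 0.147, edgeR adjusted p = 0.00248). The call for EREG was lost in several alternatives. Its adjusted p was 0.0105 with DESeq2, and with edgeR 0.0112 without shCdGAP replicate 1, 0.0169 without shCon replicate 1 and 0.0141 without shCon replicate 2.

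AREG, which encodes amphiregulin (ENSG00000109321, chromosome 4 from 74445134 to 74455009, plus strand), was measured at 19.7, 17.7 and 20.3 CPM in shCdGAP and at 14.5, 15.0 and 14.0 CPM in shCon samples. Every shCdGAP library was above every shCon library. The rise was 1.33-fold, with a log2 fold change of 0.40 (SE 0.0698, edgeR adjusted p = 0.000973). BTC, which encodes betacellulin, a ligand of EGFR and ERBB4 (ENSG00000174808, chromosome 4 from 74744759 to 74794686, minus strand), was measured at 10.1, 8.86 and 9.81 CPM in shCdGAP and at 5.60, 6.23 and 4.99 CPM in shCon samples. It too was separated, by 1.71-fold, and its log2 fold change of 0.77 (SE 0.104, edgeR adjusted p = 0.000224) ranged from 0.68 to 0.84 with single libraries left out.

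HBEGF, which encodes heparin-binding EGF-like growth factor, a ligand of EGFR and ERBB4 (ENSG00000113070, chromosome 5 from 140332843 to 140346631, minus strand), was measured at 23.0, 27.1 and 22.6 CPM in shCdGAP and at 11.2, 10.3 and 11.4 CPM in shCon samples. The lowest shCdGAP library was well above the highest shCon library. HBEGF rose 2.21-fold, with a log2 fold change of 1.15 (SE 0.0856, edgeR adjusted p = 5.77e-06). This was close to the fold limit, and when the log2 fold change was tested against 1 rather than 0 the adjusted p was 0.172.

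TGFA, which encodes transforming growth factor alpha (ENSG00000163235, chromosome 2 from 70447280 to 70554193, minus strand), was the ligand that did not pass. It was at 29.4 and 29.8 CPM in shCdGAP replicates 1 and 3, within the 29.2, 29.9 and 30.3 CPM of the shCon samples, and at 42.8 CPM in shCdGAP replicate 2. The log2 fold change was 0.19 with a 95% interval from -0.15 to 0.53 (edgeR adjusted p = 0.282), and -0.02 without that replicate.

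NRG1, which encodes neuregulin 1, the group's ligand of ERBB3 and ERBB4 (ENSG00000157168), had 36, 38 and 34 reads in shCdGAP libraries and 3, 1 and 0 reads in shCon libraries. The groups were separated, but NRG1 was the rarest of the 10 genes in both. From 108 against 4 reads the ratio of scaled counts was 26.7, with a 95% counting interval from 10.1 to 99.8. The log2 fold change was 4.62 (SE 0.452, edgeR adjusted p = 3.02e-05) and rose to 5.78 without shCon replicate 1, which held 3 of the 4 control reads. NRG1 has several promoters and isoforms, which counts per gene do not separate.

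**Figure D2:**
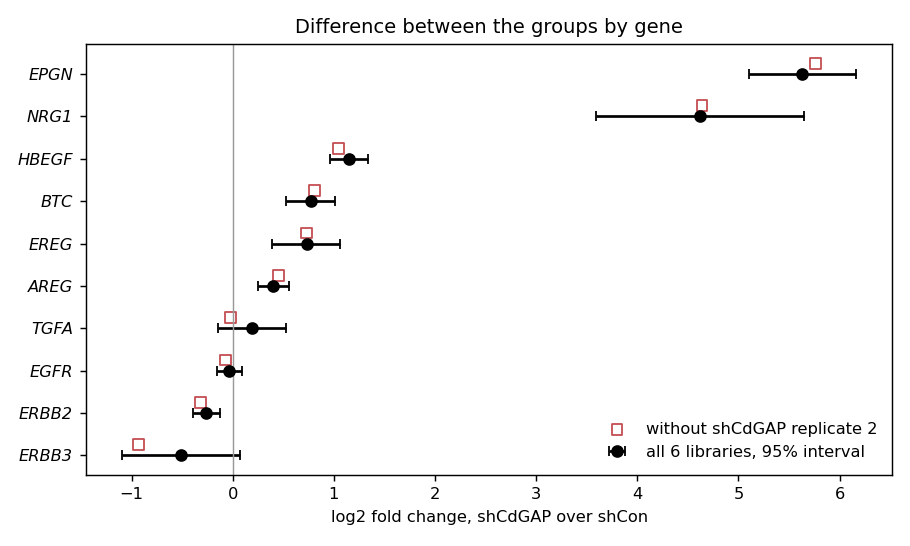
Log2 fold change of each member on the horizontal axis, with all 6 libraries (filled circle, bar the 95% interval) and without shCdGAP replicate 2 (open square). Leaving that replicate out takes ERBB3 from -0.51 to -0.93 and TGFA from 0.19 to -0.02, and EPGN and NRG1 lie far to the right of the rest.

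The relative abundance of the members was compared as RPKM, the CPM divided by the gene's length in kilobases. In shCon cells EGFR was the most abundant member at 9.79 RPKM, followed by AREG at 8.80, TGFA at 6.0, ERBB2 at 4.69, HBEGF at 3.63 and BTC at 1.99 RPKM. ERBB3 followed at 0.820 and EREG at 0.202 RPKM, EPGN at 0.110 and NRG1 last at 0.00414 RPKM. No neighbours in that order overlapped between libraries. In shCdGAP cells AREG came first at 11.7 RPKM, without overlap with EGFR, and EGFR, HBEGF, TGFA and EPGN followed at 9.56, 8.04, 6.85 and 5.46 RPKM. The libraries overlapped between EGFR and HBEGF, between HBEGF and TGFA and between TGFA and EPGN, and between no other neighbours. ERBB2 at 3.91 and BTC at 3.41 RPKM came next, and ERBB3, EREG and NRG1 were the 3 lowest. EPGN thereby moved from second to last in the order to above ERBB2.

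The summed level of the 7 ligands was 35.4, 36.3 and 35.9 RPKM in shCdGAP and 20.6, 21.1 and 20.5 RPKM in shCon libraries, 1.73-fold higher without overlap. Leaving EPGN out of the EGFR ligands, the sum was 30.3 ± 1.32 against 20.6 ± 0.315 RPKM (SD, n = 3 each), 1.47-fold higher. The summed receptors were at 14.0 ± 0.865 RPKM in shCdGAP and 15.3 ± 0.472 RPKM in shCon cells (SD, n = 3 each). The composition of the ligand pool also differed. AREG made up 42.4% ± 0.95 of it in shCon and 32.5% ± 2.59 in shCdGAP cells, and TGFA 29.0% ± 0.702 and 19.1% ± 4.06 (SD, n = 3 each). HBEGF went from 17.5% ± 1.23 to 22.4% ± 2.1 and EPGN from 0.53% ± 0.137 to 15.2% ± 2.81 (SD, n = 3 each), while BTC was at 9.60% and 9.51%. The sums and shares are given as descriptions without a test. An exact permutation test of 3 against 3 samples cannot give a two-sided p under 0.1.

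**Figure D3:**
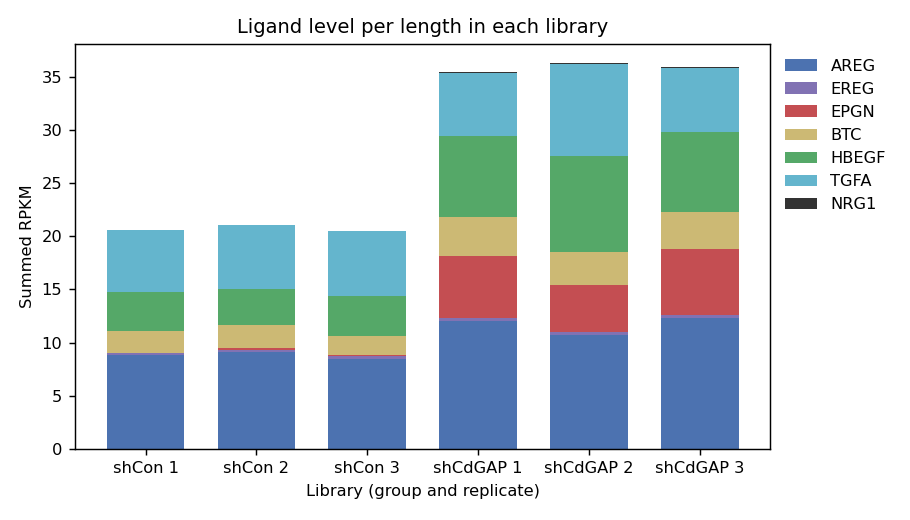
Stacked bars of the RPKM of the 7 ligands (vertical axis) in each of the 6 libraries, 1 colour per gene. The bars end between 20.5 and 21.1 RPKM in shCon and between 35.4 and 36.3 RPKM in shCdGAP libraries, and the EPGN layer is visible chiefly in shCdGAP.

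EPGN, EREG, AREG and BTC lie next to each other on chromosome 4, with the starts of EREG, AREG and BTC 56.7, 137 and 436 kb from that of EPGN. All 4 rose. Their promoter windows, 250 bases before to 50 bases after the RefSeq start (GRCh38.p14), are shown because these ligands share a neighbourhood but differ widely in fold change. Each is written on the strand of its gene. Capitals mark matches to 5 motifs searched on both strands, namely TGANTCA for AP-1, TGACGTCA for the cyclic AMP response element, TATAAA for the TATA box, GGGCGG for the GC box and GGGNNTTCC for NF-kB.
EPGN (chr4:74308220-74308519, plus strand): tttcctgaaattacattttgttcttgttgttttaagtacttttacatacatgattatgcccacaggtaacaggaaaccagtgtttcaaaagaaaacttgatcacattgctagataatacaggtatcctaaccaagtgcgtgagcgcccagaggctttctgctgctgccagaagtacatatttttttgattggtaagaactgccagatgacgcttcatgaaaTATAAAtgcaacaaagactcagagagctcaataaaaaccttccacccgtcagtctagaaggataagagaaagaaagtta
EREG (chr4:74364895-74365194, plus strand): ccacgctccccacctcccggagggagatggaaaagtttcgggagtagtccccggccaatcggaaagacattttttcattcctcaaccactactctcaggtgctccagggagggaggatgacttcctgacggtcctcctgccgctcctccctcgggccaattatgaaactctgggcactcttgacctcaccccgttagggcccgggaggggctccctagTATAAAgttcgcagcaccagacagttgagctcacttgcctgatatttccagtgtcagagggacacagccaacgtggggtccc
AREG (chr4:74444886-74445185, plus strand): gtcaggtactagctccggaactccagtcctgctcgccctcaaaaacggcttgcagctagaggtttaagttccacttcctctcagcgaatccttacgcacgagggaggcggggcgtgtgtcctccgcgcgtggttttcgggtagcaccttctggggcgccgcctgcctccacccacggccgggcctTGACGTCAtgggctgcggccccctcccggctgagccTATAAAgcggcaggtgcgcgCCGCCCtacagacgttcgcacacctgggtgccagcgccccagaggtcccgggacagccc
BTC (chr4:74794474-74794773, minus strand): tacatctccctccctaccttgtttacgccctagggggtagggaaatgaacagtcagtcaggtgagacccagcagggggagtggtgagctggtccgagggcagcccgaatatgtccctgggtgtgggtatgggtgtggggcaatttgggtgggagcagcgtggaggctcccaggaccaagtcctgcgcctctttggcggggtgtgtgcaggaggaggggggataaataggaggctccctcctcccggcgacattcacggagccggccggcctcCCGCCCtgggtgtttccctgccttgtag
The EPGN, EREG and AREG windows each held TATAAA, with its first base 29, 32 and 29 bases before the start, as did 11.5% of all 35116 windows. AREG also held the cyclic AMP response element 65 bases before the start, found in 1.85% of windows, and a GC box, as did BTC and 45.0% of all windows. No AP-1 or NF-kB match, present in 7.71% and 6.58% of windows, was found in these 4. The EPGN window was the poorest in G and C at 37.7%, against 57.7% for EREG, 63.0% for BTC and 66.3% for AREG. A match of letters is a description and not a measured binding site. The RefSeq start used for BTC lies 163 bases from the start in the count tables, and for the other 3 genes at most 3 bases.

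Other genes near EPGN also differed between the groups. Of the 11 tested genes other than members that start within 1 Mb of it, 8 were higher and 1 was lower at an adjusted p under 0.01. Over all tested genes, 24.1% were higher and 22.0% lower. The 11 genes had a median log2 fold change of 1.44, whereas the 630 tested genes of chromosome 4 had a median of -0.06. The fetal serum protein gene AFP was higher by 3.15 and PARM1 by 3.40 on the log2 scale, and the neutrophil chemokine genes went in both directions, with CXCL8 at 2.21, CXCL2 at 1.44 and CXCL5 at -2.35. MTHFD2L, a mitochondrial folate enzyme gene on the same strand that ends 5374 bases before EPGN starts, rose by 0.87 on the log2 scale, from 23.5 to 43.1 CPM. Reads from a transcript that runs from MTHFD2L into EPGN cannot be told apart from EPGN's own in counts per gene. Around HBEGF, TGFA and NRG1 the neighbours within 1 Mb had median log2 fold changes of 0.20, -0.04 and -0.20, from 41, 23 and 6 genes. Around EGFR, ERBB2 and ERBB3 the medians were 0.33, -0.16 and -0.02, from 10, 44 and 55 genes.

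**Figure D4:**
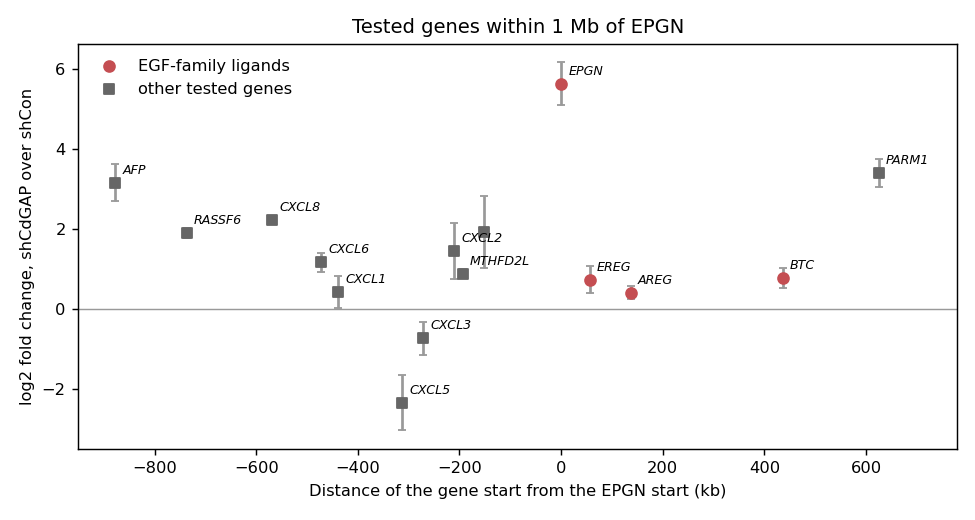
Log2 fold change (vertical axis, bars the 95% interval) of tested genes by the distance of their start from that of EPGN in kb (circles members, squares other genes). EPGN, at 5.63, is the highest point, and EREG, AREG and BTC lie between 0.40 and 0.77, below neighbours such as AFP at 3.15 and PARM1 at 3.40.

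The genes whose pattern over the 6 libraries was most like that of EPGN, by Pearson's r of log2(CPM + 0.1) over genes averaging 3 or more in log2 CPM, were C1S, MKNK1 and CCDC71L at 0.9996 each, PANX2 at 0.9995 and IPP at 0.9994. Their log2 fold changes were 2.85, 0.79, 0.41, 2.31 and 0.54. With 2 groups this measure mostly follows the difference between them, and 1833 of 10282 genes were over 0.95.

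The rest of the pathway was described from lists of 99 genes, of which 95 were tested. At an adjusted p under 0.01, 23 (24.2%) were higher and 33 (34.7%) lower in shCdGAP cells, beside the 24.1% and 22.0% of all genes. The median log2 fold change of the 95 was -0.08. The same shares of all genes are the background for the counts of each list below. Among the 4 tested genes of the ERBB family outside the 10, EGF, the ligand that gives the family its name, was measured at 6.34, 6.02 and 4.98 CPM in shCdGAP and at 1.12, 1.56 and 1.21 CPM in shCon samples. It was thus higher in every shCdGAP library, by 4.45-fold, with a log2 fold change of 2.15 (SE 0.162, edgeR adjusted p = 6.17e-06). ERBB4, the remaining neuregulin receptor, was at 0.419, 0.551 and 0.466 CPM against 1.69, 1.26 and 1.03 CPM, and fell by 1.47 on the log2 scale (edgeR adjusted p = 0.000852). The neuregulin genes NRG2 and NRG4 did not pass, with log2 fold changes of 0.01 and -0.49, and NRG3 had no reads.

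Of the 11 tested genes that release the ligands from the membrane or control that step, 4 rose and 7 fell. ADAM12, a protease reported to cleave HBEGF, rose by 3.02 on the log2 scale, from 5.55 ± 0.167 to 45.2 ± 2.64 CPM (SD, n = 3 each). The rhomboid protease gene RHBDL2 rose by 1.45 and ADAM19 by 0.39. ADAM17, the main sheddase of AREG, EREG, HBEGF and TGFA, fell by 0.46 on the log2 scale (edgeR adjusted p = 8.65e-05), ADAM10, the main sheddase of BTC and EGF, by 0.26, ADAM9 by 0.75 and RHBDF1, which assists ADAM17, by 0.76. RHBDF1 went from 17.2 to 10.1 CPM. The more abundant RHBDF2 of the same list rose by 0.31, from 68.5 to 85.1 CPM (edgeR adjusted p = 0.00296). ADAM8 fell by 2.15, from 7.19 CPM to 0.987, 2.76 and 0.989 CPM, so that shCdGAP replicate 2 was closest to the controls, and by 2.86 without that library. Without a filter on low counts its adjusted p was 0.0131.

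Below the receptors, 5 of 34 adaptor and kinase genes rose, 11 fell and 18 did not pass. PIK3R3, a regulatory subunit of PI3-kinase, rose by 1.38 on the log2 scale, the adaptor NCK2 by 0.83 and NRAS by 0.55. VAV2, an activator of Rac-type GTPases, fell by 0.72.

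Genes that restrain or remove the receptors went both ways, with 9 of 30 higher, 9 lower and 12 not passing. ERRFI1, which encodes an inhibitor of the EGFR kinase, was measured at 902, 1040 and 914 CPM in shCdGAP and 232, 236 and 229 CPM in shCon samples. It rose by 2.04 on the log2 scale (SE 0.0567, edgeR adjusted p = 2.92e-08). LRIG1, which encodes a membrane protein that promotes ERBB receptor degradation, had 0, 9 and 0 reads in shCdGAP and 154, 190 and 130 reads in shCon libraries. All 9 reads were in replicate 2. The log2 fold change was -5.68 (edgeR adjusted p = 4.03e-05), and without that replicate LRIG1 was at least 50-fold lower, counting 3 reads per library as the floor. The RAS-ERK inhibitor genes SPRY1 and SPRY2 fell by 1.01 and 1.00. CBLC and SPRED3 rose by 2.31 and 0.95, but neither passed 0.01 when any shCon library was left out, with an adjusted p of 0.0171 to 0.0200 for CBLC and 0.0133 to 0.0225 for SPRED3. CBLC counts were 17, 53 and 18 reads with shCdGAP against 6, 6 and 5 reads with shCon, and its log2 fold change was 1.66 without shCdGAP replicate 2 (edgeR adjusted p = 0.000751). Without a filter on low counts, the adjusted p of SPRY1 was 0.0115.

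Of 16 tested genes of the early ERK response, 4 rose, 5 fell and 7 did not pass. EGR2 rose by 2.52 on the log2 scale, PHLDA1 by 0.94 and IER3 by 0.79, whereas DUSP4, IER2 and ETV4 fell by 0.61, 0.42 and 0.39. DUSP6, an ERK phosphatase gene of the same list, was named after its values were seen. It was at 221, 390 and 201 CPM in shCdGAP and at 104, 107 and 105 CPM in shCon samples. Its groups did not overlap, but with the high replicate 2 its log2 fold change of 1.36 narrowly missed the threshold (edgeR adjusted p = 0.0111).

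**Figure D5:**
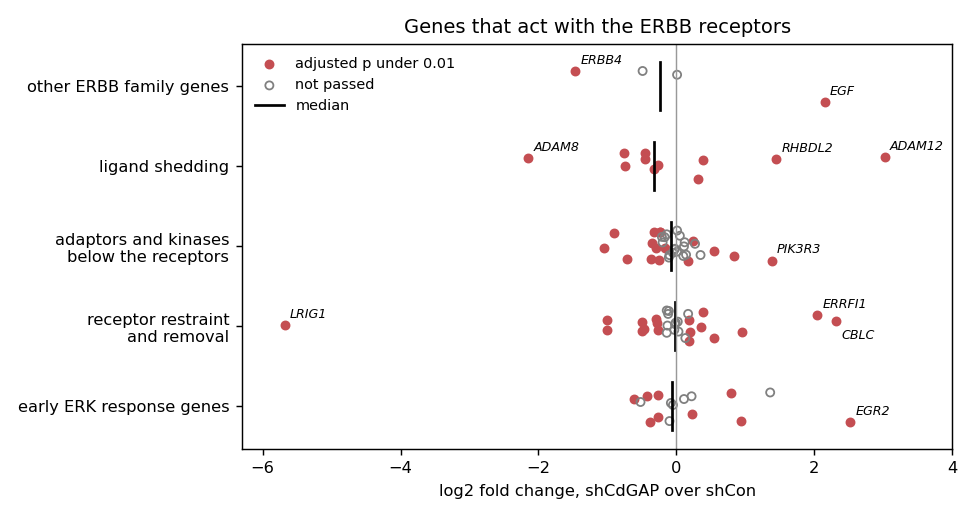
Log2 fold change (horizontal axis) of each tested gene of the 5 pathway lists, filled where the adjusted p was under 0.01 and open where not, with a bar at the median of each list. The list medians lie between -0.32 and -0.02, and EGF, ADAM12, CBLC, ERRFI1 and EGR2 on the right and LRIG1 and ADAM8 on the left lie beyond 2 on the log2 scale.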

How the data were processed

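RNA of 3 shCdGAP and 3 shCon samples of PC-3 cells was analysed, grouped by the treatment label. The authors deposited raw read counts per gene, made with FastQC 0.11.5, STAR 2.5.1b on GRCh38 and featureCounts. The submitters' processing notes name featureCounts 1.4.6, while the table headers name version 1.6.0, read pairs counted by strand and Ensembl release 77, although the methods name a single-read kit. Replicates of a group differed by more than counting noise and were kept as separate samples.

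Counts were tested with edgeR 4.0.16 in R 4.3.3 (filterByExpr, TMM, robust quasi-likelihood F test, Benjamini-Hochberg adjustment over 16439 genes). The code was run on counts simulated from edgeR's own fitted dispersions, which checks the code and not how well the model suits these data. Calls used an adjusted p under 0.01, alone or with an absolute log2 fold change above 1. CPM and RPKM were computed from the counts, TMM-scaled library sizes (factors 0.987 to 1.01) and the gene length column of the tables. The intervals given with ratios of scaled counts cover counting error only, whereas those of log2 fold changes use the standard error of the edgeR fit. Alternatives included DESeq2 1.42.0, other scalings and filters, a test against the fold limit, a replicate block and each library left out. Deviations of same-numbered samples from their group means correlated weakly (r = 0.13, 0.13 and 0.12 for replicates 1, 2 and 3). Samples of unlike number had r between -0.21 and 0.1. The labels do not say what a number marks, so it was not established that the numbers pair the samples. The fit was made without the block, which was run as an alternative. The methods state no block for the study's own test.

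The members and lists were chosen with earlier results of these data known. Named genes were all 10 members, the other genes of the ERBB family, the 3 most raised and 3 most lowered genes of each list among those that passed 0.01, and the 5 genes most like EPGN. ADAM17, ADAM10, RHBDF2, DUSP6 and the neighbours of EPGN were named after their values were seen. Some genes that this rule names are not reported here. Promoter sequences are from RefSeq, where 8 of the 10 members matched a window.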

Additional observations from a re-analysis of the deposited data

How the results depend on the processing

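Over 158 recomputed log2 fold changes of the members, 143 kept their direction and side of the 0.01 threshold, 13 no longer passed, 1 newly passed (ERBB3, without shCdGAP replicate 2) and 1 changed sign (TGFA, -0.02 without shCdGAP replicate 2, and up to 0.28 without another library). A test against a log2 fold change of 1 rather than 0 (glmTreat) gave 658 genes higher and 340 lower, in place of 1407 and 689. Under it ARHGAP31, still at -1.14, had an adjusted p of 0.0115, pathway genes called lower numbered 1, and AREG, BTC, ERBB2, EREG and HBEGF did not pass. Requiring 10 reads in every library left 1 member called higher, because that filter removes EPGN and NRG1. Without a filter, pathway genes called lower numbered 3. With single libraries left out, 3 members were called higher each time, 0 to 2 members were lower at the adjusted p alone, and 14 to 28 pathway genes were higher. With the replicate number as a block, 3 members were called higher and 0 lower, 6 were higher and 1 lower at the adjusted p alone, and 7 and 6 pathway genes were called higher and lower, while all genes gave 1371 and 677. The block changed no member's call. Depth limits NRG1, EREG and EPGN most, whose control libraries held at most 3, 47 and 9 reads.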
